A study of Mus musculus with 3 samples.

Results

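NADPH oxidases move electrons from NADPH across a membrane to oxygen and so make superoxide or hydrogen peroxide. The 8 subunit genes described here are Nox1, Nox3, Nox4 and Cybb, which encode catalytic subunits (Cybb encodes NOX2, the phagocyte enzyme), Cyba, which encodes their membrane partner p22phox, Ncf1 and Ncf4, which encode the cytosolic subunits p47phox and p40phox, and Rac2, which encodes a small GTPase of blood cells that activates NOX2. In vessels, NOX4 is known as the constitutively active form of endothelial and mural cells, whereas NOX2 needs its cytosolic subunits to assemble and is most abundant in phagocytes. The members were given by name, and every probe whose RefSeq accession named one of them was taken: 11 probes for these 8 of 20882 named genes, with 2 probes each for Nox1, Nox4 and Cyba and 1 for each of the other 5.

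Expression was measured on 3 one-colour arrays of cultured primary endothelial cells labelled as coming from the cavernous tissue of the C57BL/6 mouse penis, all grown with serum, heparin and vascular endothelial growth factor A. One array held cells in 5 mmol glucose (normal glucose), 1 held cells in 30 mmol glucose (high glucose) and 1 held cells in 30 mmol glucose with DKK2, a secreted modulator of Wnt signalling, each for 48 h; no DKK2 dose is stated in the labels. Every array carried a pool of RNA from 3 samples. With a single array for a condition, differences between arrays have no replicates behind them, no p-value is given, and condition and array cannot be told apart. Signals are the scanner's background-corrected processed signals on a linear scale. Their 75th percentile was 1201 under normal glucose, 2380 under high glucose and 2417 with DKK2, so differences are given as log2 after division by that percentile, followed by a technical error (SD from the scanner's error model). "Higher" and "lower" in a count mean at least 2-fold, and the number of arrays limits the precision. The endothelial marker Pecam1 read 135, 369 and 435 and Cdh5 195, 568 and 311 in that order of arrays, and 11 of 13 endothelial markers were well above background by the scanner's flag on all 3. Emcn was not in normal glucose, and Erg was so in high glucose only. All 8 fibroblast and all 8 smooth muscle and pericyte markers were also above background on every array.

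Promoter windows are shown for Nox1, Cybb and Ncf1, the members with the largest differences that had a window in the RefSeq table (build GRCm38.p6, 250 bases before to 50 after the gene start, read along the gene). Capitals mark GAGGAA, the core of sites for the phagocyte transcription factor PU.1, on either strand.
Nox1, chrX:134111805-134112104, minus strand: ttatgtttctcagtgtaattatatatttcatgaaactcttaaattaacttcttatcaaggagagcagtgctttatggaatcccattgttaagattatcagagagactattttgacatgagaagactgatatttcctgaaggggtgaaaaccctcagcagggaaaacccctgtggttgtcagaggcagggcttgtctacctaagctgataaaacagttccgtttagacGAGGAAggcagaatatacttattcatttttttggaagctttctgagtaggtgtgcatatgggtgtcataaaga
Cybb, chrX:9469275-9469574, minus strand: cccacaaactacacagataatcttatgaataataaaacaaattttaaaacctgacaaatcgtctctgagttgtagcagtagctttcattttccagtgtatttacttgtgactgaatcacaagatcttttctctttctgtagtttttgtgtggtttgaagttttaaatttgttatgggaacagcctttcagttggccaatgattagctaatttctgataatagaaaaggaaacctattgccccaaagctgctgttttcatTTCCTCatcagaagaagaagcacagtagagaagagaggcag
Ncf1, chr5:134229576-134229875, minus strand: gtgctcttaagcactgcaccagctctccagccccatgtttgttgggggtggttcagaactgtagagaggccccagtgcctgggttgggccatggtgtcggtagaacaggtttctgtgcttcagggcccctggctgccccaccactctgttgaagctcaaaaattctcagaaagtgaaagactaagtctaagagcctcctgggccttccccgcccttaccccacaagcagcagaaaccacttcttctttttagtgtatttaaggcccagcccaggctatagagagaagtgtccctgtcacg

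Windows were found for 6 of the 8 members. GAGGAA lay at bases -23 to -18 of Nox1, on the gene's strand, and at bases 10 to 15 after the start of Cybb, on the opposite strand. The windows of Nox3, Nox4, Cyba and Ncf1 held no match. Of all 32851 promoter windows, 28.3% held GAGGAA on either strand. TATAAA, the core of the TATA box, was in none of the 6 windows and in 13.6% of all windows. GC content was 35.3% in the Cybb window, 38.0% for Nox1, 54.0% for Ncf1, 60.7% for Cyba and 68.3% for Nox4. A match describes letters only, and binding was not measured.

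The catalytic subunits differed in how they read. Cybb read 51.3 under normal glucose, 38.4 under high glucose and 128 with DKK2. It was lowest in high glucose and highest with DKK2, although only the step to DKK2 and the step down in high glucose were large: Cybb was lower by a log2 difference of -1.41 (error SD 0.22) in high against normal glucose and higher by 1.72 (0.21) with DKK2 against high glucose. DKK2 in high glucose stood 0.32 (0.21) above normal glucose, so these arrays lay within 2 error SDs of each other. The order of DKK2 and normal glucose turned with the alternative background corrections described further on. Cybb with DKK2 against normal glucose was at -0.74 with normexp and at -0.19 with normexp fitted without control spots. In bulk RNA, fewer cells of a type and less RNA per cell cannot be told apart, which holds for every value here.

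Nox4, the oxidase usually named for endothelial cells, was read by a pair of probes that disagreed. Its brighter probe read 220 under normal glucose, 755 under high glucose and 611 with DKK2, a difference of 0.79 (error SD 0.20) in high against normal glucose and -0.33 (0.20) with DKK2 against high glucose. Its other probe read 81.6, 81.0 and 81.8, nearly the same signal on arrays whose 75th percentile differed, which gives -0.997 (0.21) and -0.01 (0.21). The glucose difference of Nox4 thus had opposite signs on its probes, each beyond 2 error SDs, and by the mean over both it was -0.10. No direction with glucose is given for Nox4. With DKK2 neither probe was 2-fold apart from high glucose.

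Nox1, the colon-type and smooth muscle oxidase, also had unlike probes. One read 23.2 under normal glucose, 140 under high glucose and 193 with DKK2, lowest in normal glucose and highest with DKK2. That order moved with background correction. High against normal glucose was at -0.41 with normexp and 0.32 with normexp fitted without control spots. For DKK2 against normal glucose these values were -0.04 and 0.68. This probe was higher by 1.60 (error SD 0.23) in high against normal glucose and stood at 0.44 (0.20) with DKK2 against high glucose. The other read 1.77, 1.69 and 1.86 and was not well above background on any array, as was the only probe of Nox3, the inner ear oxidase, at 1.56, 1.49 and 1.63. Each of these 6 signals was close to its own error, and the median of 153 negative control spots was 1.80, 1.67 and 1.85, so no difference is given for Nox3.

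**Figure D1:**
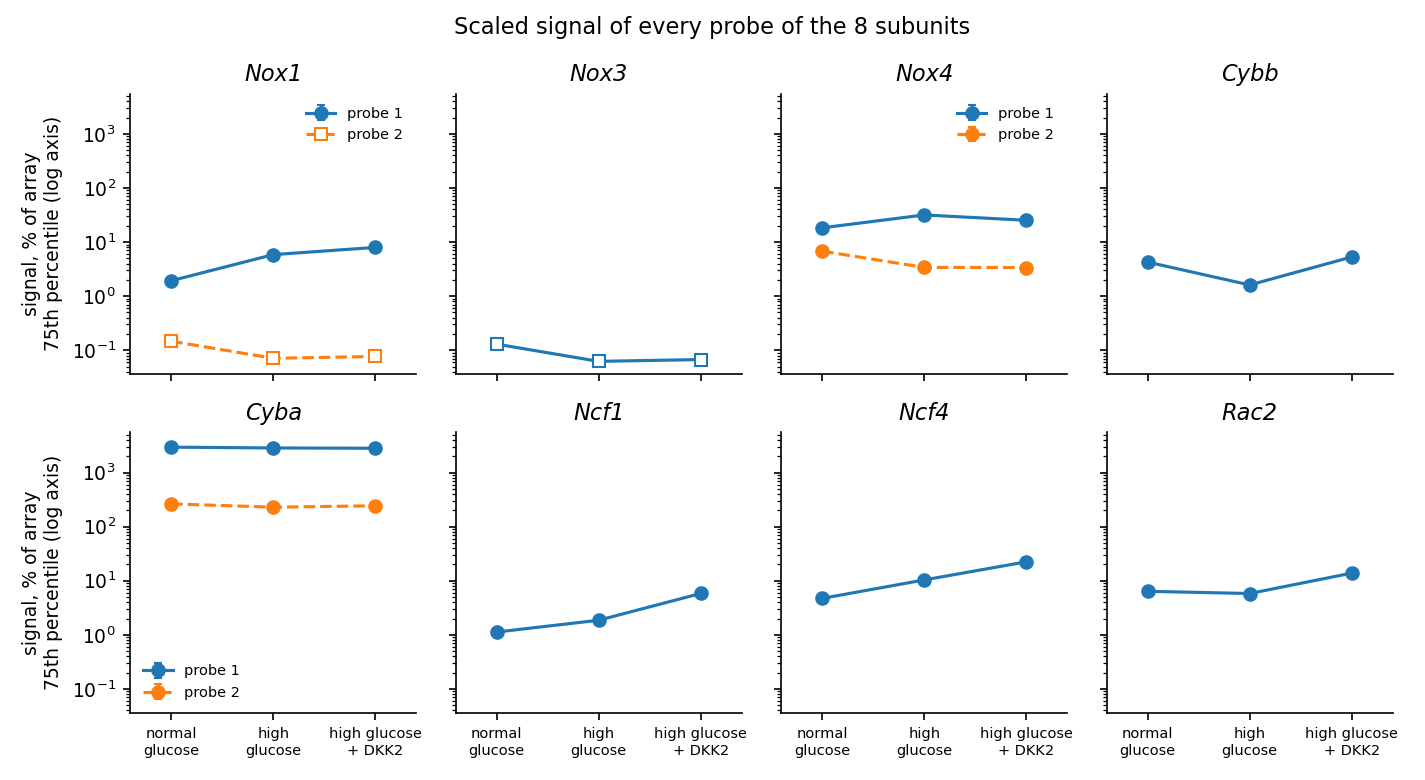
Signal of each of the 11 probes as a percentage of its array's 75th percentile (log axis) on the 3 arrays, 1 array per condition; bars are the scanner's technical error, mostly smaller than the points, and open squares are probes not well above background, drawn without bars. In these processed signals, Ncf1 and Ncf4 increase over the arrays from 1.13% to 5.82% and from 4.72% to 22.4%. Cyba is level, and the probes of Nox4 go opposite ways from normal to high glucose.

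Cyba, the membrane partner that these catalytic subunits share, was level across the arrays after scaling. Its brighter probe read 35347 under normal glucose, 67657 under high glucose and 67883 with DKK2, and its other probe 3159, 5444 and 5864. The scaled values lay within the technical error: the brighter probe differed by -0.05 (error SD 0.20) in high against normal glucose and -0.02 (0.20) with DKK2 against high glucose, and the other by -0.20 (0.20) and 0.09 (0.20). Signals of different probes are not amounts, and single genes were not ranked by them. Sums over marker lists, given further on, weight each gene by the brightness of its probe.

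By the processed signal, the cytosolic subunits were dim in normal glucose and brightest with DKK2. For Ncf1 that order moved with background correction. With DKK2 against normal glucose it was at -0.59 with normexp and 0.26 with normexp fitted without control spots. Ncf1 read 13.5, 44.3 and 141 in normal glucose, high glucose and DKK2. Its differences were 0.72 (error SD 0.33) in high against normal glucose, 1.64 (0.22) with DKK2 against high glucose and 2.37 (0.32) with DKK2 against normal glucose. Before any correction the spot's foreground was 47.5, 69.0 and 147, where negative control spots had medians of 30.5, 33.0 and 34.0, so the normal glucose value of Ncf1 stood only a little over them. Ncf4 read 56.7, 246 and 540, and its differences were 1.13 (0.21), 1.11 (0.20) and 2.25 (0.21) for the same pairs. For Ncf4 each array as reported stood 2-fold or more from the next. The glucose step did not hold with background correction, at -0.18 with normexp and 0.41 with normexp fitted without control spots. With DKK2 against high glucose Ncf4 stayed at 1.01 with either.

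Rac2 was spotted 10 times on each array, which shows the spread between spots. Its signals ran from 68.5 to 85.0 with a median of 76.2 in normal glucose, from 116 to 146 with a median of 141 in high glucose and from 321 to 348 with a median of 333 with DKK2. The spots of the 3 arrays did not overlap before scaling, and the SD between spots was at most 0.10 log2 units. After scaling, high and normal glucose were -0.14 apart (error SD 0.21), within that error, while DKK2 stood 1.25 (0.20) above high glucose and 1.12 (0.21) above normal glucose. The differences from normal glucose moved with background correction. High against normal glucose was at -0.91 with normexp and -0.41 with normexp fitted without control spots. For DKK2 against normal glucose these values were 0.06 and 0.55. Spots of 1 array share 1 RNA pool and are not replicates of a condition.

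**Figure D2:**
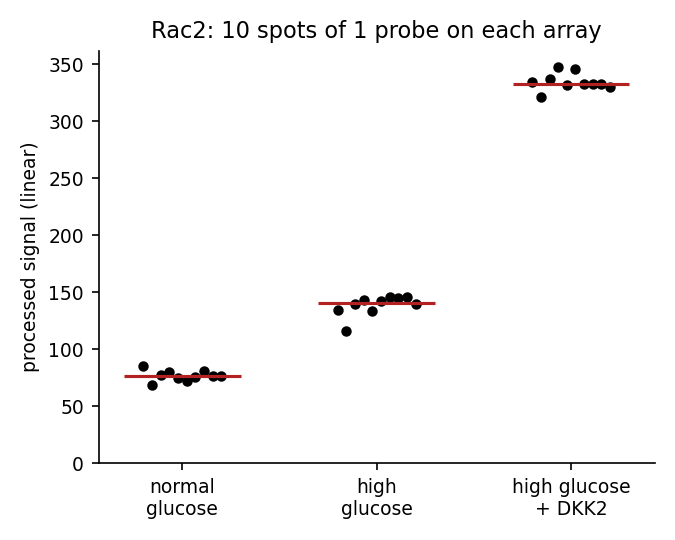
Processed signal (linear axis from 0) of the 10 Rac2 spots on each of the 3 arrays; points are spots and lines are medians, at 76.2, 141 and 333. The spots cluster tightly within an array, and those with DKK2 lie above all others. The signals are not scaled here, and the 75th percentile of the whole array was also lower in normal glucose (1201) than in high glucose (2380).

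With DKK2 against high glucose, 4 of the 7 measured members were higher (Cybb, Ncf1, Rac2 and Ncf4, by 3.30-fold, 3.13-fold, 2.39-fold and 2.16-fold) and 0 were lower, with a median of 1.11. The background over 17821 genes was 5.08% higher and 4.85% lower, with a median of 0.08. Among the genes in the brightness range of the members other than Cyba, 7.9% were higher and 7.27% lower. These 4 encode the phagocyte oxidase: its catalytic subunit, 2 of its cytosolic subunits and its GTPase. They lay close to 2-fold with normexp background correction, which adds an offset of 50 to all signals: Ncf4 was at 1.01, Cybb at 0.99, Rac2 at 0.97 and Ncf1 at 0.86, so 1 of 7 was then 2-fold higher.

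In high against normal glucose, 2 of 7 members were higher (Nox1 by 3.04-fold, Ncf4 by 2.19-fold) and 1 was lower (Cybb), with a median of 0.72. The sign of that median turned with the setting: it was -0.41 with normexp, -0.03 with normexp fitted without control spots and -0.10 with the mean over each gene's probes. Of all 16762 genes, 2.67% were higher and 5.73% lower (median 0.09), and in the same brightness range 3.82% and 7.4%. This comparison rests on dim signals: in normal glucose 6 of the 9 measured member probes read below 100. With normexp, Nox1 was at -0.41 and Ncf4 at -0.18, on the other side of 0, and Ncf1 was at -1.45. A single control spot in normal glucose lay 852 below its local background on that array, and after this normexp fit negative controls came out at a median of 125 in normal glucose against 58.1 in high glucose. With control spots left out of the fit, a setting chosen after seeing the data, Nox1 was at 0.32, Ncf4 at 0.41, Ncf1 at -0.58 and Cybb at -1.16. Cybb was thus the only member 2-fold apart in this comparison under both forms of normexp. Without any scaling between arrays Cybb was at -0.42. Of the genes apart by 2-fold, 31.8% were higher as reported, 4.19% with normexp, 18.5% with normexp fitted without control spots and 98.3% with no scaling.

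**Figure D3:**
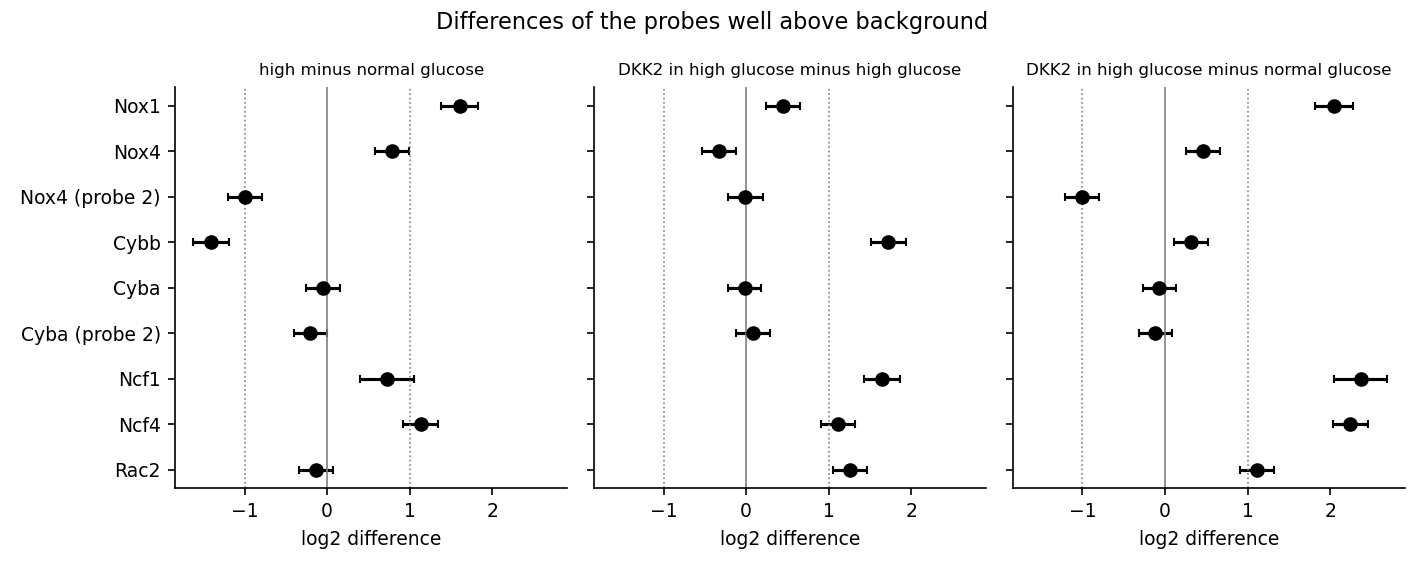
Log2 differences of the 9 measured member probes in the 3 comparisons; points are single array pairs, bars the technical error SD, dotted lines 2-fold. Cybb goes from -1.41 to 1.72 between the first 2 panels, and the probes of Nox4 lie on opposite sides of 0 in the first.

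With DKK2 in high glucose against normal glucose, 4 of 7 members were higher (Ncf1 by 5.16-fold, Ncf4 by 4.74-fold, Nox1 by 4.13-fold and Rac2 by 2.17-fold) and 0 lower, with a median of 1.12, which was -0.02 with normexp and 0.30 with normexp fitted without control spots. The background was wide here, with 10.5% of 16672 genes higher and 10.4% lower (median 0.12), and 13.8% and 13.6% in the members' brightness range. Ncf4 was the only one of these 4 past 2-fold with normexp fitted without control spots, at 1.41, while Nox1, Rac2 and Ncf1 were at 0.68, 0.55 and 0.26. With normexp on all spots no member was past 2-fold. Members were counted on their brightest probe. As reported, the brighter Nox4 probe was at 0.46 (error SD 0.20) and its other probe at -1.005 (0.21), past 2-fold lower. Of the genes 2-fold apart, 50.2% were higher as reported, 19.0% with normexp, 40.4% with normexp fitted without control spots and 95.8% with no scaling. The 3 comparisons share arrays and are not independent of each other.

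**Figure D4:**
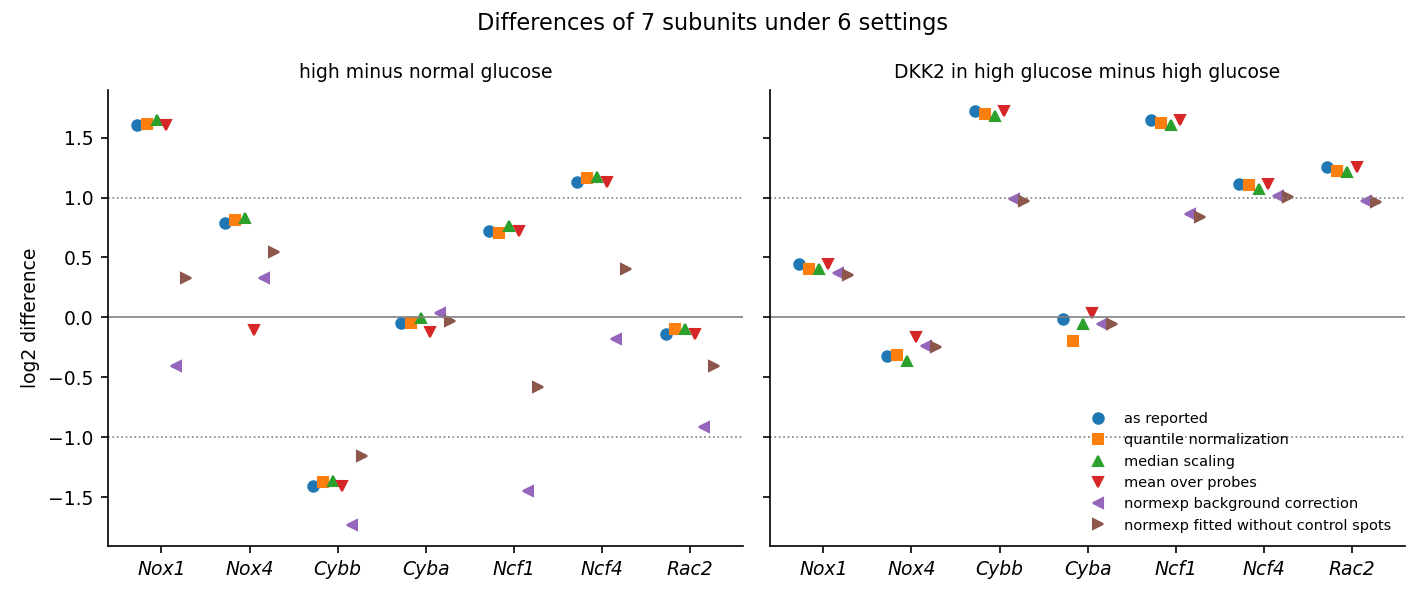
Log2 differences of the 7 measured members under 6 settings, for high against normal glucose (left) and DKK2 against high glucose (right); dotted lines mark 2-fold. In the left panel the normexp settings carry Nox1, Ncf1 and Ncf4 down by more than 0.7, and in the right panel Cybb, Ncf1, Ncf4 and Rac2 stay above 0 in every setting, between 0.84 and 1.72.

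Over the full list of 19 oxidase genes, members included, 4 of 15 measured were higher and 0 lower with DKK2 against high glucose (median 0.27), and 2 of 14 were higher and 1 lower with glucose (median -0.06). The members were chosen with results of these data known, and the difference between members and the rest was not tested. Of the 11 further subunit, assembly and accessory genes 9 had a named probe, and 0 of the 7 or 8 measured were 2-fold apart in any comparison as reported, with medians of -0.13 in high against normal glucose and -0.04 with DKK2 against high glucose. Rac1, the widely expressed counterpart of Rac2, was at -0.33 and 0.02 in these comparisons. Noxo1 and Noxa1, the organiser and activator that serve NOX1, were at -0.19 and 0.08 with glucose and at -0.77 and 0.27 with DKK2. Hvcn1, the proton channel that balances the charge moved by the oxidase, was lowest of the group with DKK2 at -0.91.

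Of 15 kinases and Rac regulators that act on the oxidase, 4 were higher with DKK2 against high glucose and 0 lower (median 0.15). The largest was Vav1, a Rac exchange factor of blood cells, at 1.42, and the lowest was the protein kinase gene Prkcz at -0.29. With glucose 0 were higher and 1 lower (median -0.25), from Prkcz at -1.12 to the small GTPase gene Rap1a at 0.67. Of 10 genes for superoxide and peroxide removal, 0 were higher and 1 lower with DKK2 against high glucose (median 0.38). There Gpx3, a secreted glutathione peroxidase gene, was at -1.05, and Gpx1, its cytosolic relative, was highest at 0.63. With glucose 0 were higher and 1 lower (median 0.18), from Gpx3 at -1.40 to Sod2, the mitochondrial superoxide dismutase gene, at 0.82. With DKK2 against high glucose the 4 genes for NADPH supply ran from 0.06 (Me1) to 0.63 (G6pdx). In high against normal glucose Idh1, a cytosolic NADPH-producing dehydrogenase gene, was at 2.29 and was the only one of these 4 that was 2-fold apart, and Pgd was lowest at -0.68.

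Phagocyte and leukocyte markers were higher on the same array as the phagocyte subunits. Of 18 listed, 17 had a named probe (Cd68 had none), and 12 of 17 were higher with DKK2 against high glucose and 0 lower, with a median of 1.67 and a range from 0.04 (Itgam) to 2.10 (Fcgr3). With normexp 12 of 17 were higher as well. In list order, Lyz2 was at 1.46, Adgre1 at 1.74, Csf1r at 0.97, Itgb2 at 1.69 and Ptprc at 0.89. In high against normal glucose 2 of 16 were higher and 1 lower (median 0.25, but -0.40 with normexp), from Laptm5 at -1.25 to Lyz2 at 2.06. Summed over the 16 markers above background on all arrays, the scaled signal was 2878%, 2066% and 2941% of the 75th percentile in normal glucose, high glucose and DKK2, a sum most of which is Itgam. Spi1, the gene of PU.1, read 6.12, 6.91 and 11.9 and was well above background with DKK2 only, and Irf8, a further phagocyte transcription factor gene, was at 1.03 with DKK2 against high glucose. Of the 5 transcription factor genes listed, 4 were measured, and in that comparison 1 was higher and 1 lower, with a median of -0.24. With normexp, quantile normalization or median scaling, 0 of 4 were 2-fold higher there. Cebpe was lowest in that comparison at -1.58 and highest with glucose at 0.84, where Cebpb was lowest at -0.78. Of 6 neutrophil markers 1 was higher and 0 lower with DKK2 (median 0.31), from S100a9 at -0.46 to S100a8 at 2.55. S100a9 was not well above background in normal glucose. Among the neutrophil markers above background on all arrays Camp was lowest at -0.35. With glucose S100a8 was again highest at 1.26 and Ltf lowest at -0.51, although with normexp no neutrophil marker was 2-fold higher with glucose and 2 of 5 were lower. Their summed signal was 186%, 166% and 266% of the 75th percentile, of which Elane alone gave 162%, 123% and 164%.

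Markers of the other cell types mostly lay below 0 with DKK2 against high glucose. In the same comparison 5 of 12 endothelial markers were lower and 0 higher (median -0.62), from Robo4 at -1.60 to Vwf at 0.58, while with glucose 4 of 11 were higher and 0 lower, from Vwf at 0.11 to Icam2 at 2.56. These counts rest on the background setting: with DKK2, 1 of 12 was lower with either form of normexp (median -0.39 on all spots), and with glucose 0 of 11 were higher and 1 lower with normexp (median -0.02). The summed endothelial signal was 378%, 526% and 540% of the 75th percentile in normal glucose, high glucose and DKK2, of which Kdr alone gave 304%, 384% and 451%, so the sum with DKK2 does not follow the median. Of 8 fibroblast markers 2 were lower and 0 higher with DKK2, from Dpt at -2.68 to Col1a2 at -0.31, and with glucose none was 2-fold apart (Dpt -0.75, Lum 0.62). Their sum was 45551%, 43025% and 30760%. Of 8 smooth muscle and pericyte markers 1 was lower and 0 higher with DKK2, from Acta2 at -1.67 to Tagln at -0.22, and 1 was lower with glucose (Cspg4 at -1.25, with Cnn1 highest at 0.73), or 4 with normexp. Their sum was 8276%, 4982% and 2864%. The part of cell type composition in the member values was not tested.

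**Figure D5:**
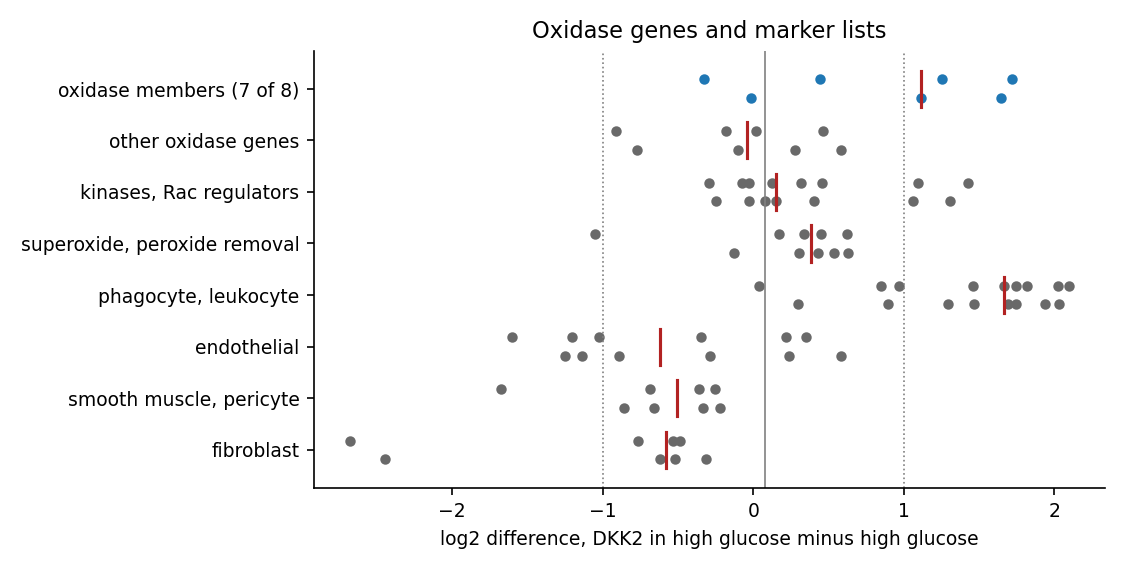
Log2 differences with DKK2 against high glucose for the measured genes of 8 lists; points are genes, red lines list medians, the grey line the median of all genes (0.08) and dotted lines 2-fold. The members divide into 4 genes above 1 and 3 between -0.33 and 0.44, and the phagocyte list has a median of 1.67.

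Genes with the most similar differences were sought among 16648 others well above background on all 3 arrays, by distance over the 3 pairwise log2 differences. With 3 arrays this is a coarse measure, so it serves as a description. Clone and predicted gene names were left out of the genes listed, but they count among the genes within 0.3. Nearest to Cybb were Tafa3 (distance 0.09), Rbm38 (0.12), Flt4 (0.15), Slc1a2 (0.28) and Lipc (0.31), and 5 genes lay within 0.3. Nearest to Ncf1 were Nol4 (0.02), Spink2 (0.04), Bfsp2, Ckap2 and Galnt6, with 29 genes within 0.3, and among the nearest to Ncf4 were Pcdh17 (0.11), Ell3, Dhh and Fanca, with 17. Nearest to Rac2 were Stard4 (0.01), Slc16a3 (0.03), Pcdhb1, Sypl2 and Cds1, with 86 genes within 0.3, and nearest to Nox1 were Soat1 (0.02), Pla2g4b (0.10), Prdm8, Usp37 and Snd1, with 13. No member was among the 5 nearest genes of another.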

How the data were processed

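RNA of 3 samples per condition was pooled per the labels, labelled with Cy3 and hybridised to 1 array per condition. The authors deposited scanner files with intensity per spot, quantified with Feature Extraction 11.5.1.1 per the file headers, and a value table of intensity; for 99.7% to 99.8% of probes it lay within a fraction of 0.001 of the mean processed signal of the probe's spots. Per array, 1377 control spots and 110, 115 and 136 outlier spots were left out. Of 39429 probes, 27502 were named by RefSeq accession through a GRCm38.p6 gene table, while the array design names build mm9. The scanner files used have no gene name column. The flag for well above background had to be set on 50% or more of a probe's spots. A gene was read on its brightest such probe. Members and lists were chosen with earlier results of these data known. The counting code was run on simulated data with planted differences and the same noise for every probe. That run left out background correction, so it does not show how far the 2-fold counts of dim members hold. Named genes are all members and, per list, the extremes in either of the first 2 comparisons, plus 6 phagocyte markers in list order. The 5 genes nearest in pattern to each member that was 2-fold apart were also named, with clone and predicted names left out. Rac1, Noxo1, Noxa1, Spi1, Pecam1, Cdh5, Emcn, Erg, Kdr, Elane and S100a9 were added after their values were seen. Alternatives were normexp (on the median foreground and background signals, since the files used have no mean signal column), quantile, median or no scaling, other filters on dim probes, a gene's mean over its probes, other fold rules and the deposited values. Some genes that this rule names are not reported here. A planned alignment of the catalytic subunits' proteins was not run. Tools were R 4.3.3 with limma 3.58.1, Python 3.11.15, numpy 2.4.6 and pandas 2.3.3.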

Additional observations from a re-analysis of the deposited data

How the results depend on the processing

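Of the 7 measured members, those 2-fold higher and lower in high against normal glucose numbered 2 and 1 as reported. They numbered 0 and 2 with normexp, 0 and 1 with normexp fitted without control spots (chosen after seeing the data), 4 and 0 with no scaling between arrays, 2 and 2 with no filter on dim probes (Nox3, below background, came in at -1.06), and 0 and 0 with the filter of a signal of at least 100 on all arrays, which kept only Cyba and Nox4. With a 1.5-fold rule they were 4 and 1, and with a 3-fold rule 1 and 0. With DKK2 against high glucose, 4 were higher as reported, 1 with each normexp, 0 with the stricter filter and 2 with the 3-fold rule. With DKK2 against normal glucose, 4 were higher as reported, 0 with normexp, 1 with normexp fitted without control spots, 0 with the stricter filter, 6 with no scaling and 3 with the 3-fold rule. Quantile normalization, median scaling, the mean over probes and the deposited table left these counts of members as they were, but the mean over probes turned the sign of the members' median with glucose. Differences past 2-fold that changed sign did so with normexp: Nox1 at -0.41 and Ncf4 at -0.18 with glucose, and Nox1 at -0.039 and Ncf1 at -0.59 with DKK2 against normal glucose. The offset weighs most on dim probes by its construction.

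All genes 2-fold higher and lower with glucose numbered 448 and 960 as reported, 172 and 3930 with normexp, 197 and 867 with normexp fitted without control spots, 9288 and 158 with no scaling, 1103 and 2128 with no filter, 219 and 582 with the stricter one, 2340 and 2276 with the 1.5-fold rule and 105 and 323 with the 3-fold rule. Their median moved by -0.34, -0.21 and 0.99 with the first 3 of these alternatives. With DKK2 against high glucose the counts were 905 and 865 as reported, 505 and 478 with normexp, 499 and 499 with normexp fitted without control spots, 1307 and 1350 with no filter, 394 and 492 with the stricter filter, 2330 and 2012 with the 1.5-fold rule and 284 and 321 with the 3-fold rule. With DKK2 against normal glucose they were 1743 and 1727 as reported, 938 and 4004 with normexp, 1054 and 1556 with normexp fitted without control spots, 9489 and 415 with no scaling, 2673 and 2346 with no filter, 1058 and 1138 with the stricter one, 4029 and 3202 with the 1.5-fold rule and 574 and 748 with the 3-fold rule. Signal over background limits all members but Cyba and Nox4. No paired analysis was possible because each condition has 1 array.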
